A study of Mus musculus with 12 samples.

Results

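The 6 normoxic retina libraries of this study fell into 2 sets with no difference in their labels: replicates 1 to 3 and replicates 4 to 6. They were 6 of the 12 libraries of the series, all poly-A RNA sequencing of retina from C57BL/6 mice at postnatal day 17. The normoxic mice had been kept in normoxic air. The other 6 libraries came from mice with oxygen-induced retinopathy (OIR), a model of vessel loss and regrowth in the immature retina, and are labelled 75% oxygen. The labels give no genotype beyond the strain, no sex, no litter, no dissection or sequencing date, and do not say whether a library is 1 animal or a pool, so p-values below measure only the spread between these libraries. The membership of the sets follows the replicate numbers in the titles, 3 libraries in each set. The split was proposed because the normoxic libraries parted along it on a principal component of the expression values of these same libraries.

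The neural retina is a layered tissue. Rods and cones capture light, bipolar, horizontal and amacrine cells process the signal, and ganglion cells send it to the brain through their axons. Behind the photoreceptors lies the retinal pigment epithelium, a pigmented sheet that regenerates the visual chromophore, carries nutrients and takes up shed outer segments. It adheres loosely to the retina, so a dissected retina can carry more or less of it, and the lens and ciliary body lie in front. A separate source of variation in retinal RNA is the early response genes, whose transcripts appear soon after light, activity or handling.

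All 6 normoxic libraries carried retina RNA at like depth. Total counts were 17361979 to 19390627 in normoxic and 17366045 to 21594618 in OIR libraries, and 25009 to 26096 genes had a count. Gnat1, the gene of the rod transducin alpha subunit, was at 8870 to 10200 CPM (read counts divided by the library's total, after edgeR's TMM correction) in the normoxic libraries. Of 57073 gene models, 19355 passed the filter on low counts, and the levels and differences below refer to these. On the second principal component of log2(FPKM + 1), with the deposited FPKM (13.2% of the variance), normoxic replicates 1 to 3 lay at 13, 13.5 and 15.4. Normoxic replicates 4 to 6 lay at -13.4, -19.1 and -16.9, OIR replicates 1 to 3 at 4.47 to 5.17 and OIR replicates 4 to 6 at -4.28 to 1.43. Pearson correlations of log2(FPKM + 1) were 0.9927 to 0.993 within normoxic replicates 1 to 3, 0.9928 to 0.9931 within 4 to 6 and 0.9849 to 0.988 between the sets. The chi-square per degree of freedom was 12 to 15.4 between the normoxic sets and 3.05 to 4.08 within them, so no library pair agreed within sampling noise.

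A gene was called parted when the 3 libraries of one normoxic set did not overlap the 3 of the other and the sets differed at least 1.5-fold. Because the split was chosen on these values, they are a description with no test. Higher in replicates 1 to 3 were 960 genes (4.96% of those tested), and 607 were lower (3.14%), together 8.1%. Without a limit on size, 37.4% of the tested genes had no overlap between the sets. The same difference between OIR replicates 1 to 3 and 4 to 6, which are other libraries, was tested with edgeR's quasi-likelihood test at an adjusted p of 0.05. It called 270 genes higher in OIR replicates 1 to 3 (1.39%) and 230 lower (1.19%). With library totals only as scaling, the split was 327 higher and 160 lower. A second test, DESeq2, called 389 genes higher and 386 lower between the OIR sets. For some lists the members at an unadjusted p under 0.05 are also counted. The share of all genes at that limit is not given, so those counts have no background and are a description. Log2 differences are replicates 1 to 3 minus 4 to 6, with their SE, unless said otherwise. In bulk retina, fewer cells of a type and less RNA per cell cannot be told apart.

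Several of the pigment genes lower in replicates 1 to 3 share a short element in their promoters. Some of these promoters are shown here, with those of 2 interferon-induced genes that were higher. The sequences are RefSeq promoters of mouse build GRCm38.p6, from 250 bases before to 50 after the transcript start, 5′ to 3′ along the gene. Capitals mark CATGTG on either strand, a form of the E-box CANNTG and the core of the M-box through which MITF acts on melanin genes.
Rpe65 (chr3:159598931-159599230, plus strand): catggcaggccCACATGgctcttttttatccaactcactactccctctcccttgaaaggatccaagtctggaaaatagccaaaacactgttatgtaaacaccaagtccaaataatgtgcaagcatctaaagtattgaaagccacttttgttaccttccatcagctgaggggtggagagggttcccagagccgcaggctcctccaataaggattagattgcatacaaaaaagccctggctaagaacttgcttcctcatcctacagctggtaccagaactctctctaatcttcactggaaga
Rgr (chr14:37048965-37049264, minus strand): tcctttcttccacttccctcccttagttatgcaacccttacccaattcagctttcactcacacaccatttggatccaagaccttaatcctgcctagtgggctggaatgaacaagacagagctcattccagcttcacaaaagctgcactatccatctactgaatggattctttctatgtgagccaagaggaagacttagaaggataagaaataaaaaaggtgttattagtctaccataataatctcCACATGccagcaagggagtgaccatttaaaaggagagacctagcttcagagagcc
Tyrp1 (chr4:80833963-80834262, plus strand): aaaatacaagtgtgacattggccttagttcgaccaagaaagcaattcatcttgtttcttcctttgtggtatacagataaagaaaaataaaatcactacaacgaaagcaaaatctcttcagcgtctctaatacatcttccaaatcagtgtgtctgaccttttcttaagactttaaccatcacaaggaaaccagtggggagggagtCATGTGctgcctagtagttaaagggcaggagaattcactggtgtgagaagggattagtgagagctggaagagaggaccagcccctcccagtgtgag
Dct (chr14:118052197-118052496, minus strand): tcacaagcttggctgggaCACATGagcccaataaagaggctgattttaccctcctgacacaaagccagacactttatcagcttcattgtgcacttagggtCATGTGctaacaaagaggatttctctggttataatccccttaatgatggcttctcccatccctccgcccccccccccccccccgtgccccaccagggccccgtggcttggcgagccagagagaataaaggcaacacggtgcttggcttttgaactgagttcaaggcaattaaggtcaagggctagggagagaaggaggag
In the next pair, capitals mark GAAANNGAAA on either strand, a core of the interferon-stimulated response element. Matches that overlap are marked as 1 run.
Ifit3 (chr19:34583279-34583578, plus strand): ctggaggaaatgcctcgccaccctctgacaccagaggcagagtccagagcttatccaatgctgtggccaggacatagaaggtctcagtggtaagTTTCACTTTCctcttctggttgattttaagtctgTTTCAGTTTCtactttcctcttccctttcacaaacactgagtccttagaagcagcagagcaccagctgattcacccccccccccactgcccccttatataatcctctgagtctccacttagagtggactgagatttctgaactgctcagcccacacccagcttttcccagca
Bst2 (chr8:71537423-71537722, minus strand): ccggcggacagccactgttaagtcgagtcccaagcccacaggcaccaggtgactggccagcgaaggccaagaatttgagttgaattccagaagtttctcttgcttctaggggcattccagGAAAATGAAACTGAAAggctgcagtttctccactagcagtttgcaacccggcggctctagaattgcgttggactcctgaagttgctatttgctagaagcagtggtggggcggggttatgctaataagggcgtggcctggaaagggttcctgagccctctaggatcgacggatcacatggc
CATGTG stood in 14.1% of all 27025 promoters in the table. It stood in 3 of 13 pigment epithelium promoters with an entry (Kcnj13, Rgr and Rpe65) and in 5 of 7 melanin gene promoters (Dct, Oca2, Slc24a5, Tyr and Tyrp1). Of these, Slc24a5 was not parted and Kcnj13 did not pass the filter. Among parted members with an entry, CATGTG stood in 2 of 7 pigment epithelium and 4 of 5 melanin promoters. GAAANNGAAA stood in 3.49% of all promoters and in 5 of the 8 interferon-induced genes with an entry (Bst2, Ifit1, Ifit3, Isg15 and Rsad2), of which only Bst2 and Ifit3 were parted. The matches describe letters in these windows and are not measured binding sites. Any part of these elements in the differences was not tested.

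Genes of the retinal pigment epithelium were lower in replicates 1 to 3. Of 15 listed markers 13 were tested. In replicates 1 to 3, 8 were parted lower (3.14% of all tested genes) and none was parted higher. The median log2 difference was -2.09 against -0.001 over all tested genes. The median was -0.999 over members with a mean FPKM of at least 1, and -0.54 on the log2(FPKM + 1) scale, which understates changes of low genes. Ttr, a thyroid hormone carrier that the pigment epithelium secretes, was at 5.41, 4.45 and 5.03 CPM in replicates 1 to 3 and at 52.7, 55 and 48.6 CPM in replicates 4 to 6. The sets were far apart and each was tight, with a log2 difference of -3.39 ± 0.15 (SE). Rpe65, the isomerase of the visual cycle, was at 2.14, 1.25 and 1.6 CPM against 10.3, 13.3 and 11.6 CPM (-2.81 ± 0.27). Rgr, an opsin of the pigment epithelium and Müller glia that also serves chromophore supply, was at 7.29, 7.11 and 5.66 CPM against 37.1, 45.5 and 42.9 CPM (-2.64 ± 0.14). The libraries of the 2 sets did not overlap for any of these 3 genes.

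The other parted pigment epithelium members were Mfrp (-2.55), the lactate transporter gene Slc16a8 (-2.36), the retinol esterifying enzyme gene Lrat (-2.17), the keratin gene Krt8 (-2.09) and the retinol uptake receptor gene Stra6, at 7.02, 6.73 and 6.51 CPM against 13.5, 14 and 13 CPM. Slc16a8 was at 3.16, 2.6 and 2.06 CPM against 13.1, 15.1 and 12.2 CPM. Enpp2 and Rdh5 were lower without overlap but by under 1.5-fold (-0.43 and -0.58), Best1 (-0.01) and Rrh (0.11) overlapped, and Krt18 (0.38) lay on the higher side. Best1 was under 1 CPM in every normoxic library. The summed level of the list was 166 to 172 CPM in replicates 1 to 3 and 283 to 296 CPM in replicates 4 to 6, a ratio of 1.7. C1qtnf5 and Kcnj13 did not pass the filter.

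Melanin genes followed the same order. Of 12 listed, 11 were tested, 7 were parted lower (3.14% of all tested genes) and none higher, with a median of -2.23 (-0.52 on log2(FPKM + 1)). Dct, which makes an intermediate of black pigment, was at 3.86, 3.96 and 4.06 CPM in replicates 1 to 3 and 29.3, 29 and 27.7 CPM in replicates 4 to 6 (-2.85 ± 0.17). Pmel, the scaffold of the melanosome, was at 1.71, 1.19 and 2.51 CPM against 12.5, 16.9 and 9.98 CPM (-2.86 ± 0.23). Tyr, the rate-limiting enzyme of melanin synthesis, was at 0.214, 0.651 and 0.4 CPM against 3.5, 4.23 and 3.49 CPM (-3.13 ± 0.37). The sets were apart for all 3 genes, and Tyr had few counts in replicates 1 to 3.

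Tyrp1 (-2.29), Gpnmb (-2.41), Oca2 (-2.23) and Gpr143 (-1.57) were the other parted melanin genes, the last at under 1 CPM in all 6 libraries. Mitf (0.16), the regulator of this group, Rab38 (-0.42), Slc24a5 (-0.36) and Slc45a2 (-0.84) were not parted. Summed melanin gene levels were 21.5 to 26 CPM in replicates 1 to 3 and 70 to 84.4 CPM in replicates 4 to 6. The plot of summed list levels shows both lists, with the OIR libraries in between.

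**Figure D1:**
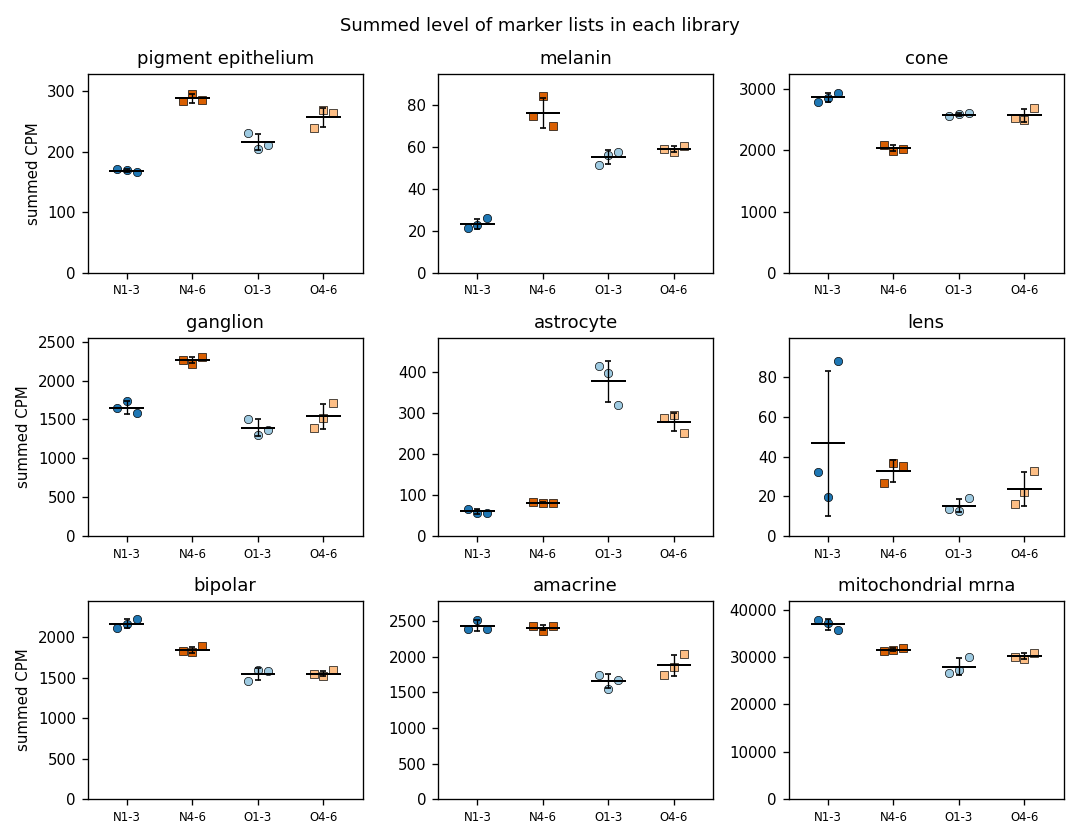
Summed TMM-scaled CPM of 9 marker lists in each library (points), with the mean and SD of the 3 libraries of a set (bars); N is normoxic, O is OIR, and the numbers are replicates. Pigment epithelium and melanin sums were lowest in normoxic replicates 1 to 3 (166 to 172 and 21.5 to 26 CPM) and highest in normoxic replicates 4 to 6 (283 to 296 and 70 to 84.4 CPM), and the lens sum of normoxic replicate 3 stood at 88.4 CPM.

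In the OIR libraries the pigment epithelium list went the same way, by less. Its median was -0.42, with 4 of 13 members called lower in OIR replicates 1 to 3 (1.19% of all genes). Ttr was at 28.6, 24.1 and 22.3 CPM against 36.9, 55.4 and 35.8 CPM (-0.77, edgeR adjusted p = 0.00186). Ttr stayed past the threshold in all alternatives tried for this comparison (adjusted p up to 0.0345). Rgr (-0.59, adjusted p = 0.0141), Slc16a8 (-0.69, 0.0265) and Enpp2 (-0.32, 0.0467) passed edgeR's test too. Each of these 3 lost its call when single OIR libraries were left out: Rgr without replicate 2, 3 or 6 (adjusted p = 0.0678, 0.0626 and 0.0525), Slc16a8 without 2, 3, 5 or 6 (0.12, 0.0902, 0.0624 and 0.0841) and Enpp2 without 1, 2, 5 or 6 (0.171, 0.154, 0.131 and 0.111). Rpe65 overlapped between the OIR sets (8.84, 4.01 and 5.43 against 7.09, 11.7 and 8.32 CPM, edgeR adjusted p = 0.2). Enpp2 also missed with library totals only (0.0631). No melanin gene was called between the OIR sets by edgeR or DESeq2 (2 of 11 had an unadjusted p under 0.05), and their median was 0.12.

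Other genes at the lower end of the normoxic difference included Pon1 (-3.11), a serum lactonase, the collagen gene Col8a2 (-2.94), the imprinted RNA H19 (-2.93), the GABA transporter gene Slc6a13 (-2.67) and the thrombospondin gene Thbs4 (-2.23). Pon1 was at 0.429, 0.597 and 0.286 CPM against 4.07, 4.73 and 2.73 CPM. Slc6a13 was at 0.857, 0.922 and 1.14 CPM against 8.75, 4.67 and 5.24 CPM. These genes had few counts in replicates 1 to 3, and without normoxic replicate 1 the value of H19 was -4.82 and that of Col8a2 -3.54. Trf, the iron carrier transferrin, had more counts, at 46.8, 47.5 and 41.1 CPM against 135, 141 and 138 CPM (-1.61 ± 0.06).

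Cone genes were on the other side. Of 14 listed, all tested, 13 were higher in replicates 1 to 3, with a median of 0.45. Of these, 12 were higher without overlap (18.6% of all tested genes were), and 2 reached 1.5-fold (4.96% of all tested genes were parted higher). Arr3 (chrX:99649103-99662099, GRCm39), the cone arrestin that quenches activated opsin, was at 408, 385 and 420 CPM in replicates 1 to 3 and at 189, 163 and 166 CPM in replicates 4 to 6 (1.23 ± 0.09). Opn1mw, the medium-wavelength opsin gene, was at 320, 318 and 363 CPM against 211, 194 and 199 CPM (0.73 ± 0.07). Opn1sw, the short-wavelength opsin gene, was at 528, 569 and 507 CPM against 406, 367 and 386 CPM (0.47 ± 0.07), below the 1.5-fold limit. Arr3 had the largest log2 difference of these 3 cone genes.

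The cone transducin gene Gnat2 (0.56), the phosphodiesterase genes Pde6c (0.49) and Pde6h (0.40), the channel genes Cnga3 (0.46) and Cngb3 (0.44) and Gngt2 (0.49) were higher by less and without overlap. The thyroid hormone receptor gene Thrb (-0.06) and Rxrg (0.07), regulators of opsin choice in cones, differed little. Summed cone genes were 2790 to 2950 CPM against 1990 to 2090 CPM. Between the OIR sets edgeR called 1 of the 14, Gnb3, a transducin subunit of cones and bipolar cells (0.28, edgeR adjusted p = 0.00903). Gnb3 lost its call without OIR replicate 1 (0.0505) and in a fit of the OIR libraries alone (0.0906). The list median was -0.18, the other sign. At an unadjusted p under 0.05 in edgeR, 7 of the 14 were lower and 1 higher. DESeq2 called 2 of the 14, against 389 higher and 386 lower among all tested genes.

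Rod genes differed less. Of 20, 15 were on the lower side, with a median of -0.12. Of all 20, 11 were lower without overlap (18.8% of all tested genes), and 1 was parted lower (3.14%). Nr2e3, a nuclear receptor that represses cone genes in rods, was at 710, 657 and 659 CPM in replicates 1 to 3 and 976, 1060 and 1030 CPM in replicates 4 to 6 (-0.60 ± 0.05). It was also lower between the OIR sets (-0.25, edgeR adjusted p = 0.0136), a call lost without OIR replicate 1 or 5 (adjusted p = 0.067 and 0.0539). Gnat1, picked as an example after its values were seen, overlapped between the normoxic sets (0.03 ± 0.05).

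**Figure D2:**
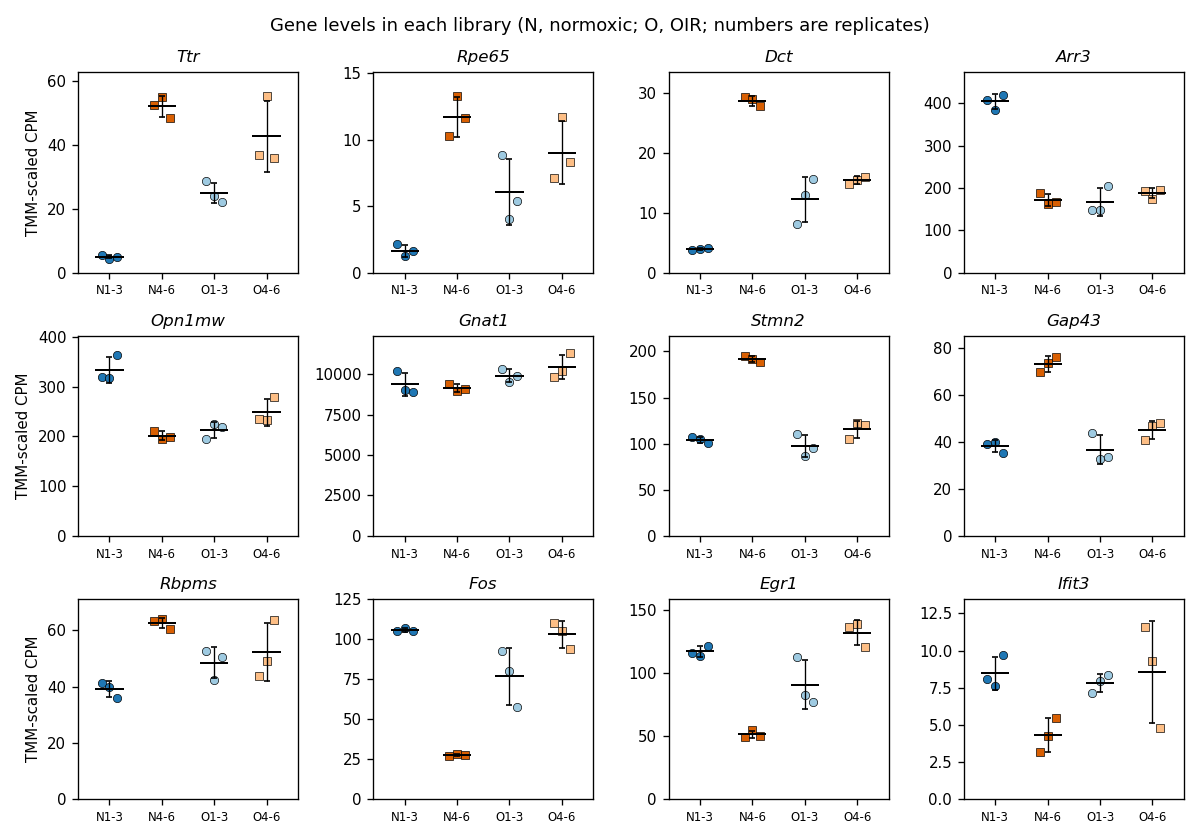
TMM-scaled CPM of 12 genes in each library (points), with the mean and SD of the 3 libraries of a set (bars); N is normoxic, O is OIR, and the numbers are replicates. Ttr, Rpe65, Dct, Stmn2, Gap43 and Rbpms were lower and Arr3, Opn1mw, Fos, Egr1 and Ifit3 higher in normoxic replicates 1 to 3, without overlap, while Gnat1 overlapped.

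Ganglion cell genes were lower in replicates 1 to 3. Of 20, all tested, 19 were on the lower side, with a median of -0.61. Of these, 17 were lower without overlap (18.8% of all tested genes), and 11 were parted lower (3.14%). Stmn2 (chr3:8574420-8626666, GRCm39), a microtubule regulator of growing axons, was at 107, 105 and 101 CPM against 195, 192 and 189 CPM (-0.88 ± 0.07). Gap43, a growth cone protein gene, was at 39.2, 39.8 and 35.1 CPM against 69.6, 73.3 and 76.1 CPM (-0.94 ± 0.09). Sncg, a synuclein of ganglion cells, was at 54.1, 64.3 and 44.3 CPM against 102, 95.6 and 96.7 CPM (-0.86 ± 0.13). The libraries of one set did not overlap those of the other in any of these.

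Rbpms, an RNA-binding protein gene used to count ganglion cells, was at 41.3, 40 and 36 CPM against 63.3, 63.9 and 60.6 CPM (-0.68 ± 0.10). Also parted were Eomes (-0.98), Pou4f2 (-0.82), Rbpms2 (-0.81), Nefm (-0.76), Tubb3 (-0.64), Pou4f3 (-0.63) and Pou4f1 (-0.59). The other 9 members were not parted, among them Nefl (-0.27), Thy1 (-0.11), the nicotinic receptor gene Chrna6 (-0.04) and the heavy neurofilament gene Nefh (0.02). Summed ganglion genes were 1580 to 1730 CPM against 2220 to 2300 CPM. Between the OIR sets edgeR called none of the 20 and DESeq2 2, with 6 at an unadjusted p under 0.05 in edgeR, and the median was -0.13.

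Genes of immature neurons, picked after their values had been seen, were lower as well. Tubb2b, a tubulin of young neurons, was at 24.8, 19 and 23 CPM against 55, 68.4 and 69.1 CPM (-1.53). Insm1, a zinc finger gene of neuronal precursors, was at 73.5, 74.7 and 71.9 CPM against 126, 127 and 126 CPM (-0.79). Dcx (-0.78), Nnat (-1.01), Sox4 (-0.59), Sox11 (-0.61), Hmgn2 (-0.79) and the lipid carrier gene of radial glia Fabp7 (-1.43) were parted in the same direction. Of these 8, Fabp7 (-0.91, edgeR adjusted p = 0.0062) and Hmgn2 (-0.32, 0.0429) were also lower between the OIR sets. Hmgn2 lost its call without OIR replicate 1, 2 or 5 (adjusted p = 0.155, 0.183 and 0.217), with library totals only (0.0553) and in DESeq2 (0.112). As they were selected for this pattern, their number supports nothing.

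The other inner neurons differed less between the normoxic sets. Of all tested genes, 4.96% were parted higher and 18.6% were higher without overlap. Amacrine genes had a median of 0.07, with 3 of 26 parted, all higher in replicates 1 to 3: the peptide gene Cck (19.5, 18.4 and 20.2 against 11, 12 and 9.54 CPM), the vesicular glutamate transporter gene Slc17a8 (22.5, 21.5 and 21.1 against 14.3, 12.2 and 12.4 CPM) and the peptide gene Vip (16.3, 20 and 22.4 against 13.6, 13.6 and 11.7 CPM). Each marks an amacrine subtype. Gad1, which makes GABA, was at 317, 343 and 318 CPM against 266, 244 and 251 CPM (0.36 ± 0.07), without overlap but under 1.5-fold. Bipolar genes had a median of 0.24, with 10 of 20 higher without overlap and 2 parted, Gng13 (0.70) and Tacr3 (0.59). Grm6, the glutamate receptor of ON bipolar cells, was at 341, 333 and 368 CPM against 276, 283 and 304 CPM (0.27 ± 0.06). Horizontal cell genes had a median of 0.03 and none of 6 was parted, Onecut2 having the largest difference (0.31 ± 0.15). Between the OIR sets edgeR called 3 amacrine and 2 horizontal genes lower and 1 bipolar gene higher (1.19% and 1.39% of all genes). Only the horizontal cell gene Calb1 (-0.35, edgeR adjusted p = 0.00101) kept its call under every alternative.

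Glia gave a mixed result. Over all tested genes, 3.14% were parted lower and 18.6% were higher without overlap. None of 14 Müller glia genes was parted, though 11 were higher in replicates 1 to 3 without overlap (median 0.19). Of 7 astrocyte genes 6 were on the lower side and 1 was higher without overlap. Parted lower were 4: the gap junction gene Gja1 (3, 3.74 and 3.83 against 9.06, 8.57 and 6.87 CPM), Pdgfra (8.73, 7.05 and 9.08 against 18.2, 18.3 and 16.7 CPM), S100b (-0.96) and Pax2 (-0.79). Gfap, which encodes a glial filament protein, overlapped (-0.29 ± 0.17). Between the OIR sets edgeR called 4 Müller glia genes lower and Gfap higher (0.66, edgeR adjusted p = 0.00323), against 1.19% and 1.39% of all genes. The 4 Müller glia calls were lost in a fit of the OIR libraries alone, and that of Gfap was kept under every alternative. Astrocytes enter the retina with the ganglion cell axons and lie beside them.

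Lens genes did not part the sets, and 1 library stood apart. Their sum was 32.1, 19.5 and 88.4 CPM in replicates 1 to 3 and 26.6, 36.5 and 35.3 CPM in replicates 4 to 6. The median of 18 tested members was 0.65, and -0.43 without normoxic replicate 3. The chaperone crystallin gene Cryaa was at 5.09, 1.46 and 13.2 CPM against 3.35, 5.06 and 6.05 CPM (0.45 ± 0.59), and -0.55 without replicate 3. Of the list, Crygd was parted higher (1.99, and 1.05 without replicate 3) and Bfsp1 lower (-0.70), both at under 6 CPM. Ciliary body genes held a library that stood apart in the other set: Optc, a matrix gene of the ciliary epithelium, was at 3.32, 4.01 and 2.74 CPM against 30.7, 6.79 and 9 CPM (-2.21, and -1.23 without replicate 4). Otx1 (-1.91) and Zic1 (-0.71) were parted in the same direction.

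**Figure D3:**
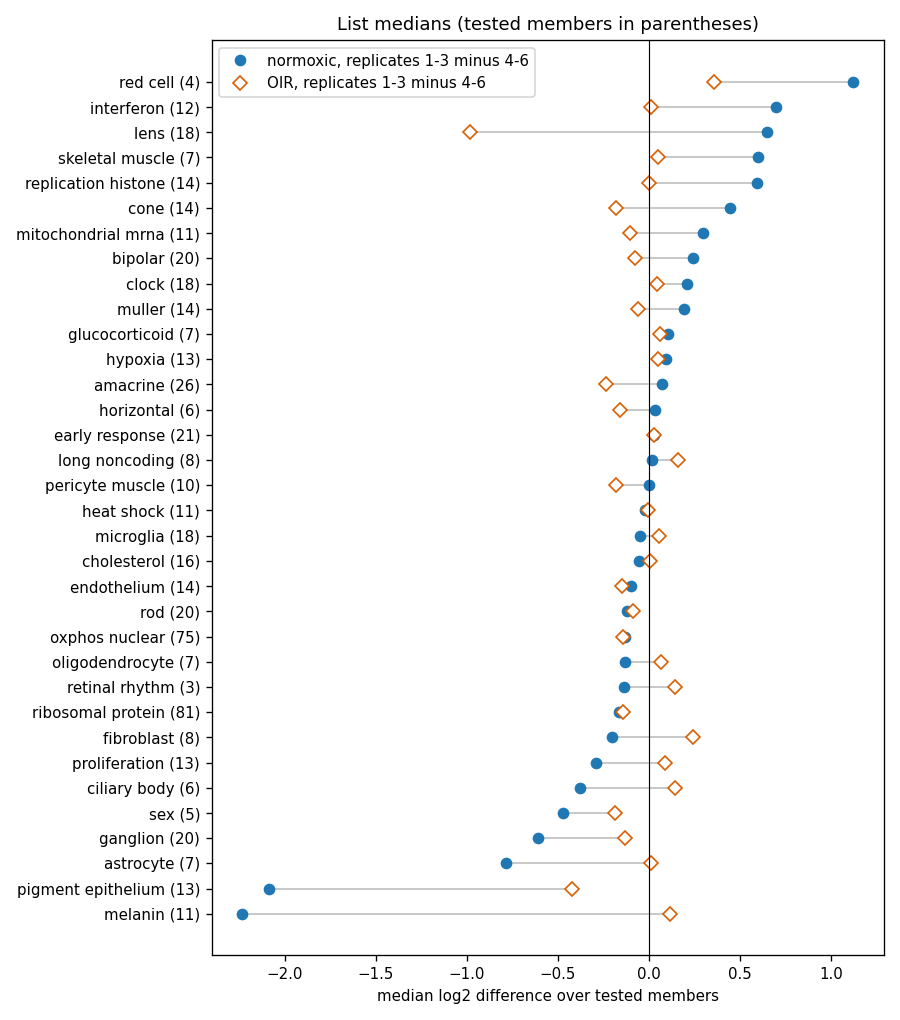
Median log2 difference (replicates 1 to 3 minus 4 to 6) over the tested members of each list, in normoxic (filled) and OIR (open) libraries; lists with under 3 tested members are not drawn. Melanin (-2.23), pigment epithelium (-2.09), astrocyte (-0.79) and ganglion (-0.61) lists lay lowest in the normoxic comparison and red cell (1.12) and interferon (0.70) lists highest, while the lens list was 0.65 in normoxic and -0.99 in OIR libraries.

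Some early response genes parted the normoxic sets, and 3 of these differed between the OIR sets with the other sign. Of 21, 7 were parted higher in normoxic replicates 1 to 3 and 1 lower (Egr4), against 4.96% and 3.14% of all tested genes, with a median of 0.03. Fos (chr12:85520664-85524047, GRCm39), a subunit of the AP-1 transcription factor, was at 105, 107 and 105 CPM against 26.7, 28.2 and 27.3 CPM (1.95 ± 0.11). Egr1, a zinc finger factor induced by activity, was at 116, 114 and 122 CPM against 49.1, 54.9 and 50.3 CPM (1.19 ± 0.10). Jun, the partner of Fos, was at 108, 113 and 116 CPM against 47.5, 54 and 54.8 CPM (1.10 ± 0.08). Ier2 (1.33), the phosphatase gene Dusp1 (1.27), Fosb (1.14) and Junb (0.75) were parted too, whereas Nr4a1 (0.03), Arc (-0.22) and Npas4 (-0.01), which also respond to activity, were not.

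Between the OIR sets the difference had the other sign for Egr1 (113, 82.8 and 76.9 against 137, 139 and 121 CPM, -0.54, edgeR adjusted p = 0.00286), which passed under every alternative (adjusted p up to 0.0456). Fos (-0.42, 0.0279) and Jun (-0.32, 0.0327) passed edgeR's test in the same direction as Egr1. Fos lost its call without OIR replicate 2, 3, 4 or 5 (adjusted p = 0.0583, 0.0854, 0.0723 and 0.0879), as did Jun (0.0832, 0.159, 0.0786 and 0.155). Fos also missed in DESeq2 (0.0814) and Jun with library totals only (0.0508). Npas4 was called higher in OIR replicates 1 to 3 (0.94, edgeR adjusted p = 0.00608), a call lost in a fit of the OIR libraries alone (0.0527). Over the 21 early response genes the median between the OIR sets was 0.03. At an unadjusted p under 0.05 in edgeR, 7 were higher and 4 lower in OIR replicates 1 to 3, and DESeq2 called 3. The list as a whole therefore did not take the other sign.

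Other genes known to be induced quickly stood among the highest normoxic differences. Ccn1, a secreted matrix protein gene induced by serum and stretch, was at 41.8, 39.3 and 40.7 CPM against 4.74, 5.17 and 4.96 CPM (3.03 ± 0.15, the highest of the named genes). Zfp36, which destabilises cytokine mRNAs, was at 23, 21.3 and 23.1 CPM against 5.97, 5.56 and 6.98 CPM (1.86 ± 0.15). Neither was called between the OIR sets (edgeR adjusted p = 0.197 and 0.485). Olig3 (2.23), Tmprss7 (1.57) and Capn11 (2.87) were others at the upper end, Capn11 with 1.07, 6.94 and 9.54 CPM against 0.669 to 0.927 CPM. Erdr1 (1.59), H3f4 (1.85), H3c4 (1.83), Rps27rt (1.60) and Pabpn1l (1.73) were also there, and the counts of Erdr1, the histone genes and Rps27rt may be shared with near-identical copies.

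Interferon-induced genes were higher in replicates 1 to 3, all 12 on that side and 7 parted (4.96% of all tested genes), with a median of 0.70. Ifit3, an antiviral RNA-binding protein gene whose promoter is printed above, was at 8.09, 7.6 and 9.71 CPM against 3.19, 4.28 and 5.45 CPM (0.97 ± 0.24). Bst2, which tethers virus particles, was at 4.77, 4.77 and 6.05 CPM against 3.35, 1.95 and 3.38 CPM (0.84 ± 0.27). Oasl2 (0.82), Ifi27 (0.99), Ifi44 (1.22), Rtp4 (0.63) and Usp18 (0.67) were the others. None of the 12 was called between the OIR sets by edgeR or DESeq2, with 2 at an unadjusted p under 0.05 in edgeR.

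Haemoglobin genes were higher in replicates 1 to 3: Hba-a1 was at 36.6, 39.6 and 47.5 CPM against 16.8, 17.1 and 17.8 CPM (1.26), with Hbb-bs (0.99) and Hbb-bt (1.29) alike, though reads may be shared between globin copies. Hba-a1 was also higher between the OIR sets (0.44, edgeR adjusted p = 0.0454, and 0.0832, 0.225, 0.0683 and 0.148 without OIR replicate 1, 2, 5 or 6, and 0.109 in DESeq2). Alas2, the haem synthesis gene of red cell precursors, overlapped (0.29 ± 0.33). Of 14 tested endothelial genes, Ly6c1 (1.16) and Slco1a4 were parted higher (4.96% of all tested genes), and the list's median was -0.10. Of 18 clock genes, 15 were on the higher side, 11 without overlap (18.6% of all tested genes), with a median of 0.21 and sums of 1880 to 1920 against 1610 to 1690 CPM. Nr1d1 (182, 193 and 189 against 130, 116 and 116 CPM) and Ciart (29.6, 29.9 and 32.9 against 19.9, 17.5 and 21.2 CPM) were the 2 parted higher, both repressors of the clock, while Per1 (0.10) and Arntl (-0.09) differed by less. Drd4, a dopamine receptor gene of photoreceptors with a daily rhythm, was at 452, 443 and 444 CPM against 593, 605 and 632 CPM (-0.45 ± 0.06).

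Mitochondrial transcripts moved with the sets as well. They took 3.91%, 3.91% and 3.75% of the counts in replicates 1 to 3 and 3.25%, 3.27% and 3.31% in replicates 4 to 6, and all 11 tested were on the higher side, 10 without overlap (median 0.30). Nuclear genes of oxidative phosphorylation lay the other way, with 60 of 75 on the lower side, 28 lower and 4 higher without overlap (18.8% and 18.6% of all tested genes), a median of -0.13 and none parted. Their sums were 7040 to 7290 CPM against 7710 to 8110 CPM, and edgeR called 8 lower and none higher between the OIR sets. Ribosomal protein genes were lower too, 69 of 81 on that side, 39 lower and 2 higher without overlap, 4 parted lower and 2 higher, with a median of -0.16. Their sums were 9010 to 9180 CPM against 9970 to 10900 CPM, and edgeR called 9 lower and none higher between the OIR sets (1.19% and 1.39% of all genes). In a fit of the OIR libraries alone, every call of both lists was lost except that of Cox4i1 (-0.31 and edgeR adjusted p = 0.00291 in the main fit). Many ribosomal protein genes have processed copies that can share reads. Replication-dependent histone genes, most of whose mRNAs lack a poly-A tail, were parted higher in 5 of 14 tested (4.96% of all tested genes). Hypoxia targets were not parted in any of 13, and Vegfa, the angiogenic factor at the centre of this model, was at 225, 217 and 219 CPM against 235, 241 and 234 CPM (-0.10 ± 0.07). The part of mitochondrial, globin and lens RNA in the other differences was not tested.

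By gene type, unannotated loci (XLOC) were parted higher in 241 of 1258 (19.2%) and lower in 26 (2.07%), and long noncoding genes in 189 (8.59%) and 93 (4.23%) of 2201. Protein-coding genes were even, with 451 higher (3.03%) and 436 lower (2.93%) of 14871. Across 14869 coding genes, which are not independent, the GC content of the longest transcript (GENCODE, GRCm38) had a Spearman correlation of 0.189 with the normoxic difference and -0.115 with the OIR difference. The sex-linked genes did not part the sets: Xist was at 321 to 970 CPM and Ddx3y at 19.9 to 60.7 CPM in the 6 normoxic libraries, with overlap. Every normoxic library thus held RNA of both the X-linked Xist and the Y-linked Ddx3y. The number and sex of the animals in each library were not tested.

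For the parted genes as a whole, the OIR libraries showed little of the same difference. Of the 960 genes higher in normoxic replicates 1 to 3, edgeR called 20 higher (2.08%) and 6 lower between the OIR sets, against 1.39% and 1.19% of all genes. Of the 607 lower, 14 were called lower (2.31%) and 8 higher. The same sign was seen in 55.8% and 59% of these genes, and in 54.8% of all genes. These counts rest on a comparison in which the number of calls depended on single libraries, 120 to 385 higher and 73 to 386 lower when 1 OIR library was left out (fewest without replicate 2, most without replicate 4), and 71 and 21 in a fit of the OIR libraries alone. Of 55 named, listed or later picked genes called between the OIR sets, 44 lost their call in that last fit. The 11 that kept it there and under every other alternative were Ttr, Fabp7, Egr1, Socs3, C4b, Gramd2, Chl1, Gfap, Calb1, Neat1 and Cox4i1.

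Leaving aside XLOC, Gm and Rik entries, the parted genes called most firmly between the OIR sets in the same direction as between the normoxic sets were Ttr, Fabp7, Socs3, C4b, Rnf207 and Gramd2. Rgr, Slc16a8 and Nr2e3, described above, were called in that direction too, as was Drd4 (-0.22, edgeR adjusted p = 0.0298, and 0.0698, 0.135 and 0.105 without OIR replicate 1, 3 or 6), which was not parted. Socs3, a feedback inhibitor of cytokine signalling, was at 6.32, 5.48 and 5.66 CPM against 3.6, 3.73 and 3.87 CPM in normoxic and 58.6, 54.7 and 33.2 CPM against 21.5, 20.6 and 29.7 CPM in OIR libraries (1.03, edgeR adjusted p = 0.00102). C4b, a complement component gene, was at 4.39, 2.82 and 3.31 CPM against 1.91, 0.834 and 0.654 CPM in normoxic libraries (1.61, and 2.23 without normoxic replicate 4). Its log2 difference between OIR replicates 1 to 3 and OIR replicates 4 to 6 was 0.94 (edgeR adjusted p = 0.00143). In Socs3 and C4b the OIR libraries lay well above the normoxic ones in both sets. Genes called in the opposite direction, besides Egr1, included A2m (0.67, 0.014), Chl1 (0.64, 0.00548), Itga4 (0.44, 0.00853) and Trf (0.29, 0.00622). A2m, a protease inhibitor gene, lost its call without OIR replicate 1, 2 or 5 (adjusted p = 0.066, 0.0741 and 0.0795) and in DESeq2 (0.0789). In the fit of the OIR libraries alone, A2m (edgeR adjusted p = 0.0691), Itga4 (0.0789), Trf (0.0534) and Rnf207 (0.0508) lost their calls.

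**Figure D4:**
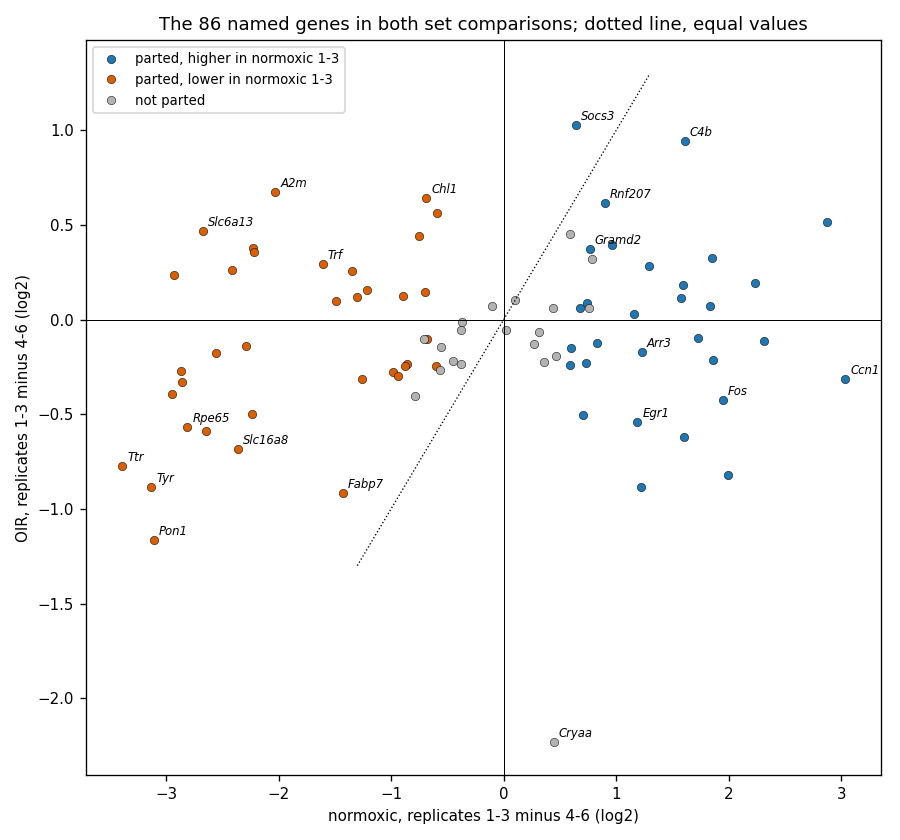
Log2 difference between replicates 1 to 3 and 4 to 6 in normoxic (x) and OIR (y) libraries for the 86 named genes (points), coloured by whether they were parted in normoxic libraries; the dotted line marks equal values. Ttr lay at -3.39 and -0.77, Ccn1 at 3.03 and -0.32, and Fos at 1.95 and -0.42.

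For these genes the OIR contrast took different values in the 2 sets. OIR minus normoxic, fitted within replicates 1 to 3, called 3635 genes higher (18.8%) and 3307 lower (17.1%) in OIR. Within replicates 4 to 6 it called 2384 higher (12.3%) and 1861 lower (9.62%). Genes called in both in the same direction were 2942 (42.4% of those called within 1 to 3 and 69.3% of those within 4 to 6), and 101 were called in opposite directions. For the parted genes the values below are a description, since the normoxic libraries that chose them enter both, and the difference between the sets was not tested.

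Of the 960 genes higher in normoxic replicates 1 to 3, 379 were called lower and 55 higher in OIR within replicates 1 to 3, and 28 lower and 182 higher within 4 to 6. Of the 607 lower, 293 were called higher and 3 lower within replicates 1 to 3, and 97 higher and 87 lower within 4 to 6. Pigment epithelium genes were called higher in 7 and lower in 2 of 13 within replicates 1 to 3, and higher in 1 and lower in 5 within 4 to 6. For Rpe65 the OIR minus normoxic log2 difference was 1.86 within replicates 1 to 3 and -0.38 within 4 to 6, for Ttr 2.33 and -0.29, for Rgr 1.24 and -0.81, and for Dct 1.63 and -0.89. The mean OIR levels of these genes lay between the means of the normoxic sets, as the plot of gene levels by library shows for Ttr, Rpe65 and Dct.

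Cone genes were called lower in 9 and higher in 2 of 14 within replicates 1 to 3, and lower in 1 and higher in 7 within 4 to 6. Opn1mw was -0.65 and 0.31, Opn1sw -0.28 and 0.39, and Arr3 -1.28 and 0.12. Among early response genes Fos was -0.47 within replicates 1 to 3 and 1.91 within 4 to 6, and Egr1 was -0.37 and 1.36. Ganglion genes were called lower in 6 and higher in 3 of 20 within replicates 1 to 3, and lower in 15 within 4 to 6, with Gap43 at -0.06 and -0.70 and Stmn2 at -0.10 and -0.73. Hypoxia targets gave the same counts in both sets, 12 of 13 higher, with Vegfa 1.28 higher within replicates 1 to 3. Within replicates 4 to 6 Vegfa was 1.10 higher, the same sign, unlike the pigment and opsin genes named above.

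**Figure D5:**
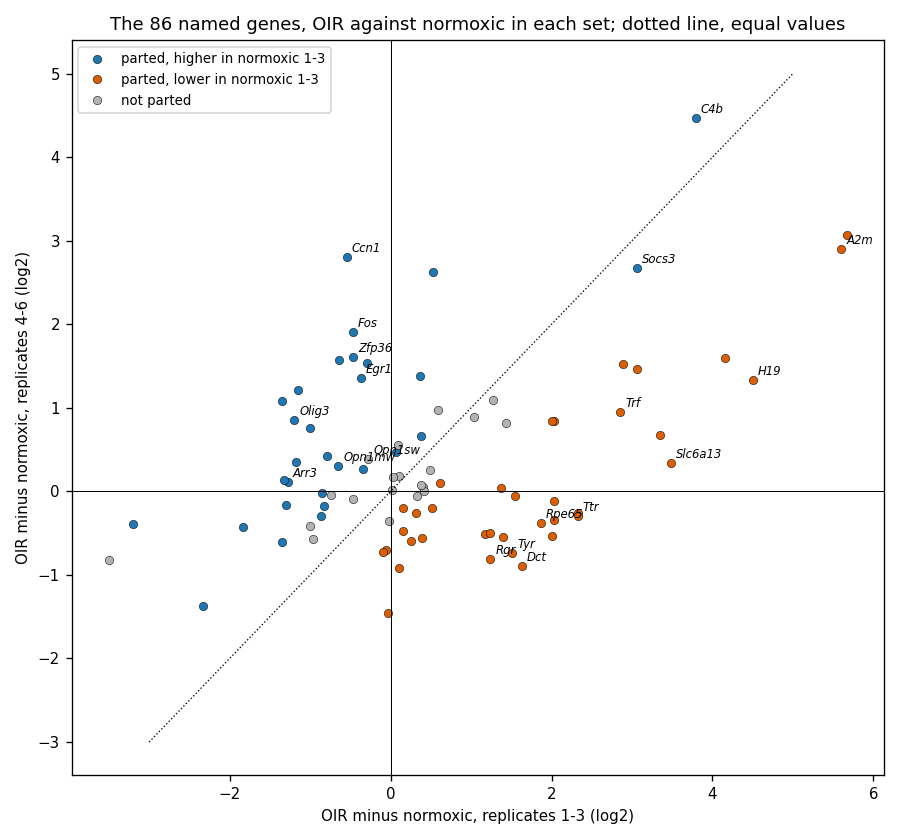
OIR minus normoxic log2 difference within replicates 1 to 3 (x) and within 4 to 6 (y) for the 86 named genes (points), coloured as parted or not between the normoxic sets; the dotted line marks equal values. Rpe65 (1.86 and -0.38), Dct (1.63 and -0.89), Fos (-0.47 and 1.91) and Ccn1 (-0.55 and 2.80) had opposite signs, while A2m (5.60 and 2.90) and C4b (3.79 and 4.46) were positive in both.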

How the data were processed

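Libraries were made from oligo-dT captured RNA, per the labels' protocols. The submitters' processing notes name Trimmomatic, HISAT2 2.0.5, HTSeq and build GRCm39. Annotation release and strand setting: not given in the sources used here. Per the file headers, the authors deposited whole-number counts and FPKM side by side.

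Counts of all 12 libraries were fitted with edgeR 4.0.16 (R 4.3.3) with 4 cells (normoxic and OIR, replicates 1 to 3 and 4 to 6), filterByExpr (minimum count 10, total 15), TMM factors and quasi-likelihood F-tests, adjusted by Benjamini-Hochberg over 19355 genes. The median biological coefficient of variation was 9.33%. The normoxic difference carries no test. The members and the 35 lists were chosen with earlier results of these data known. Named genes were the 12 highest and 12 lowest parted genes with a proper name and a mean FPKM of at least 1, the leading members of each list, the 6 parted genes called most firmly in each direction between the OIR sets, and 15 fixed genes. Some genes that this rule picks are not reported here. Genes at under 1 CPM rest on few counts.

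Tested on simulated data for the OIR set comparison, where 50 genes were changed at each fold, the fit recovered 74% of 1.5-fold, 74% of 2-fold, 98% of 3-fold and 100% of 4-fold changes. It made 17 false calls among 19044 genes, and 0 with no gene changed. The 17 are few beside all genes but a larger share of the calls made. The changed genes were drawn only from genes above a limit on mean counts, so these rates do not cover genes with few counts. Same-numbered normoxic and OIR libraries showed no shared deviation, though 3 libraries in each set cannot exclude a pairing. DESeq2 1.42.0, other scalings and filters, FPKM and leaving out each library were alternatives. The difference in how set members differ between conditions was not tested with an interaction term.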

Additional observations from a re-analysis of the deposited data

Results flagged for a closer look

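In groups of 6 libraries, 1 library stood apart from the other 5 by Dixon's criterion in these cases, and chance alone flags about 1 in 20 groups. In normoxic replicate 3 Crygd was at 5.83 CPM (next 2.14) and the summed lens genes at 88.4 CPM (next 36.5). In normoxic replicate 4 Optc was at 30.7 CPM (next 9) and the summed ciliary body genes at 61.3 CPM (next 35.3). In OIR replicate 6 Crygd was at 1.08 CPM (next 0.464), Gng13 at 5.21 CPM (next 3.39), Pabpn1l at 2.66 CPM (next 1.61) and summed replication histone genes at 276 CPM (next 239), all highest. In the same library the proliferation gene Mki67 was lowest at 2.21 CPM (next 5.45), as was the interferon sum at 114 CPM (next 159). In OIR replicate 1 Gpnmb was highest at 11.9 CPM (next 7.98) and Grm6 lowest at 156 CPM (next 188). In OIR replicate 2 Xist was at 1350 CPM (next 742) and the summed sex-linked genes at 1380 CPM (next 882). Erdr1 was lowest in OIR replicate 5 at 5.62 CPM (next 9.28) and the early response sum lowest in OIR replicate 3 at 827 CPM (next 994).

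For other genes, every OIR library lay on one side of the normoxic libraries of its own set in replicates 1 to 3 and on the opposite side in replicates 4 to 6. The log2 ratio of mean CPM, OIR to normoxic, is given first within replicates 1 to 3 and then within 4 to 6. It was 2.04 and -0.54 for Col8a2, 1.63 and -0.89 for Dct, 1.51 and -0.74 for Tyr, 1.25 and -0.82 for Rgr, 1.18 and -0.51 for Slc16a8, and 1.25 and -0.50 for Thbs4. In the opposite order it was -0.54 and 2.80 for Ccn1, -0.46 and 1.91 for Fos, -0.37 and 1.36 for Egr1, -0.46 and 1.61 for Zfp36, -1.20 and 0.86 for Olig3, -0.65 and 0.31 for Opn1mw, and -0.28 and 0.39 for Opn1sw. Among summed lists it was 0.35 and -0.16 for pigment epithelium, 1.23 and -0.37 for melanin, -0.15 and 0.34 for cone, -0.12 and 0.22 for Müller glia and -0.28 and 0.14 for replication histone genes. These differences between the sets were not tested.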

How the results depend on the processing

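Median-of-ratios factors and library totals kept the direction of all 8 main marker list medians and moved no count by over 1.5 times, though totals alone gave 327 higher and 160 lower between the OIR sets (67.1% higher against 54%). With no expression filter 934 genes were parted lower, and 425 were called higher and 514 lower between the OIR sets. With a mean FPKM of at least 1, 385 were parted lower and the pigment epithelium median was -0.999. A limit of 2-fold left 378 parted higher and 262 lower, and properly named genes only (chosen after seeing the data) left 442 higher and 432 lower. On log2(FPKM + 1), which understates changes of low genes, 302 were parted higher and 134 lower, with medians of -0.54 for pigment epithelium and -0.52 for melanin. DESeq2 called 386 lower between the OIR sets, and a fit of the OIR libraries alone called 71 higher and 21 lower. Leaving out each library in turn gave 120 to 385 higher and 73 to 386 lower between the OIR sets, medians of -2.25 to -1.88 for pigment epithelium, -2.35 to -1.86 for melanin and -0.43 to 1.04 for lens. Of 55 genes followed between the OIR sets, 11 kept their call under all alternatives. The causes were not tested.

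With the replicate number as a replicate block, in fits of 1 set each, 3735 genes were called higher and 3409 lower in OIR within replicates 1 to 3, and 1998 and 1465 within 4 to 6, against 3770, 3456, 2135 and 1536 without the block. Same-numbered deviations correlated at -0.03 to 0.04 and other-numbered ones at -0.09 to 0.05. With 3 libraries in each set these values cannot exclude a pairing by number, and the labels do not give one. Counts were few for genes at under 1 CPM, such as Gpr143 and Best1.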
